A study of Mus musculus with 24 samples.

Results

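The 10 genes examined here encode the proteins that build elastic fibres: Eln, Fbn1, Fbn2, Mfap4, Emilin1, Fbln5, Efemp2, Ltbp4, Lox and Loxl1. They were taken by symbol from the 23420 genes listed in each of 4 expression tables of mouse lung, and all 10 were present in every table. Bulk RNA-Seq was made from the left lung lobe at postnatal day 2 (P2) and postnatal day 5 (P5). Each table holds 3 control lungs, given as wild type in the column headers, and 3 mutant lungs. The sample titles call the controls Control(Vangl1/2) beside the Vangl2 mutants and Control(Ror2) beside the Ror2 mutants. What Vangl1 stands for in that title was not given. The mutants were Sox9Cre; Vangl2f/f or Sox9Cre; Ror2f/f, so a floxed Vangl2 or Ror2 was deleted by Cre placed in the Sox9 locus. Sox9-Cre acts in the SOX9-positive distal lung epithelium, which gives rise to the alveolar epithelium, and also in other SOX9-expressing cells of the body. Strain and sex, and whether the controls carried a floxed allele or Cre, were not given in the sources used here. The 4 comparisons are called Vangl2 P2, Vangl2 P5, Ror2 P2 and Ror2 P5, each of mutant over control lungs within its own table. They ask how the elastic fibre genes behaved when planar cell polarity signalling was removed from the epithelium before and during the formation of secondary septa.

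Elastic fibres give the lung its recoil, and in the newborn mouse they are laid down by myofibroblasts and other fibroblasts of the alveolar wall, with elastin gathering at the tips of growing septa. Tropoelastin, the soluble monomer made from Eln, is deposited on a scaffold of microfibrils whose backbone is fibrillin-1 (Fbn1) and fibrillin-2 (Fbn2). MFAP4 and EMILIN1 are glycoproteins of the microfibril and elastin surface. Fibulin-5 (Fbln5), fibulin-4 (Efemp2) and LTBP4 carry tropoelastin to the scaffold and to its cross-linking enzyme. Lysyl oxidase (Lox) and LOX-like 1 (Loxl1) oxidise lysines of tropoelastin, from which the cross-links form. None of these genes is a marker of the epithelial cells in which the alleles were deleted.

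Eln is the gene around which the other members are arranged, and the study's primer pair for quantitative PCR can be placed in its sequence. The expression values were taken by gene symbol, and the primers locate the quantitative PCR assay only. Eln lies on the minus strand at chr5:134702595-134747368 (GRCm38, the assembly also called mm10). The forward primer matches exon 20 of the 37 exons of the coding transcript Eln-201 in GENCODE vM21, at chr5:134716992-134717010, and the reverse primer matches exon 21, at chr5:134716440-134716459. Both lie in the coding sequence, and the product of 97 bases spans an exon junction. In the product, capitals mark the primer sites:
Eln forward primer: gccaaagctgccaaatacg
Eln reverse primer: ctccagctccaacaccatag
Eln-201 product: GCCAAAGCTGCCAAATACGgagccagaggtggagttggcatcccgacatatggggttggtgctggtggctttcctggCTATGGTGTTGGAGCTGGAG

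Of the members, 5 had entries among the RefSeq promoter windows (GRCm38.p6): Fbn1, Fbln5, Ltbp4, Emilin1 and Efemp2. Eln, Fbn2, Mfap4, Lox and Loxl1 were not matched. The 250 bases directly upstream of the first listed start site are shown for Emilin1 and Efemp2, because their levels followed each other most closely of all member pairs (r = 0.97), and for Fbn1 as the microfibril backbone gene. The Emilin1 window lies inside the annotated span of its gene, which begins at chr5:30913387. The Fbn1 window overlaps the span of its gene, which reaches chr2:125506485. Capitals mark, on either strand, GGGCGG (a GC box), CAGAC (a SMAD-binding core) and CAGCTG (an E-box). TATAAA, the AP-1 motif TGANTCA and the CArG box were searched too and had no match in these windows, and GGGCGG copies may overlap each other.
Emilin1, chr5:30913536-30913785, plus strand: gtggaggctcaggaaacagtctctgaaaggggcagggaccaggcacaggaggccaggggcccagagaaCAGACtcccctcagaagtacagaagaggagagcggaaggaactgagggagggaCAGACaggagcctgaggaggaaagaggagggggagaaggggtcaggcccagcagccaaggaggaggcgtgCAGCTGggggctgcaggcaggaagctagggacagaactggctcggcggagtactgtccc
Efemp2, chr19:5473696-5473945, plus strand: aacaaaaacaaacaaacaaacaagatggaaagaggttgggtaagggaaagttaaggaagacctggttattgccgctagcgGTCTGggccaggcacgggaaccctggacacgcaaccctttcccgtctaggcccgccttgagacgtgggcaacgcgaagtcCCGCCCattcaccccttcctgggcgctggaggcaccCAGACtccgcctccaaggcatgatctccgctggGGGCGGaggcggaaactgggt
Fbn1, chr2:125506439-125506688, minus strand: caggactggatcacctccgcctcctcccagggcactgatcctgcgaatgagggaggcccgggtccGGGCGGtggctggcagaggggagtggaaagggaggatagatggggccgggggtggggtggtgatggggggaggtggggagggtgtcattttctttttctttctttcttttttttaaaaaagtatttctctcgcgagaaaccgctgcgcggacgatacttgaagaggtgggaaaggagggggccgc
The SMAD-binding core occurred 2 times in the Emilin1 window and 2 times in the Efemp2 window, and 42.2% of the 32851 promoter windows of this length hold it. The GC box occurred 2 times upstream of Efemp2 and 1 time upstream of Fbn1, against 32.7% of all windows. The E-box occurred 1 time upstream of Emilin1, against 13% of all windows. The TATAAA, AP-1 and CArG motifs are in 12.4%, 6.75% and 1.47% of all windows. These are letter matches and describe the windows only.

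Reads on genes, recovered from the normalized counts, numbered between 16178031 and 21546673 in 23 lungs. In the Ror2 P5 table, control replicate 1 had 13823693 reads on genes and stood apart: all 629 well-expressed genes of chromosome 6 were at 0 there, as were all such genes of chromosomes 7, 8, 9 and X and 575 of 799 on chromosome 5. Eln, Loxl1 and Ltbp4 were at 0 in that lung and the control level in Ror2 P5 is therefore a mean of 2 lungs for them. Emilin1, also on chromosome 5, was listed at 3785 in that lung and was set missing with the rest of its chromosome. The targeted genes were lower in the mean of the mutants in each comparison, without passing the test. Vangl2 stood at 249, 302 and 281 normalized counts in Vangl2 P2 controls and at 240.8, 224 and 173 in mutants, for a log2 fold change of -0.39 (SE 0.18, adjusted p = 0.241). In Vangl2 P5 it stood at 369, 314 and 292 in controls and at 169.5, 148 and 166 in mutants, with -1.003 (SE 0.18, adjusted p = 0.0604). Ror2 gave -0.38 (SE 0.16, adjusted p = 0.25) in Ror2 P2 and -0.16 (SE 0.20, adjusted p = 0.691) in Ror2 P5, where the groups overlapped. A whole lobe holds every lung cell type, so fewer cells of a type and less RNA per cell cannot be told apart in any value below. The genotype entries of the Vangl2 P5 and Ror2 P2 mutants name the other gene than their titles do, and the titles were followed.

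Counted per length, Mfap4 and Eln were by far the most abundant members in all 8 groups. In Vangl2 P2 controls, Mfap4 reached 1612 ± 63.5 RPKM (reads per kilobase of exon, scaled to a fixed total of reads on genes) and Eln 364 ± 46.6 (SD, n = 3). Eln was between the 6th and the 9th most counted of all genes in these lungs, and it was the most counted gene of all in 1 Vangl2 P2 mutant. Ltbp4, Fbln5 and Loxl1 followed at 101 ± 4.05, 97.3 ± 10.5 and 91.2 ± 5.88, and the lungs of neighbouring genes in this trio overlapped. Fbn1 came next at 56.2 ± 4.62, ahead of Emilin1 at 37.1 ± 3.66 and Lox at 37.0 ± 5.08, whose lungs overlapped. Efemp2 at 25.1 ± 1.44 and Fbn2 at 9.51 ± 1.68 were lowest, and their lungs did not overlap. The first 2 places and the last were the same in all 8 groups, although the lungs of Mfap4 and Eln overlapped in the Vangl2 P2 mutants. Length was the union of all annotated exons, which is 8098 bases for Eln, where the transcript Eln-201 has 3853. The order of Mfap4 and Eln can depend on that choice, and other lengths were not tried.

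**Figure D1:**
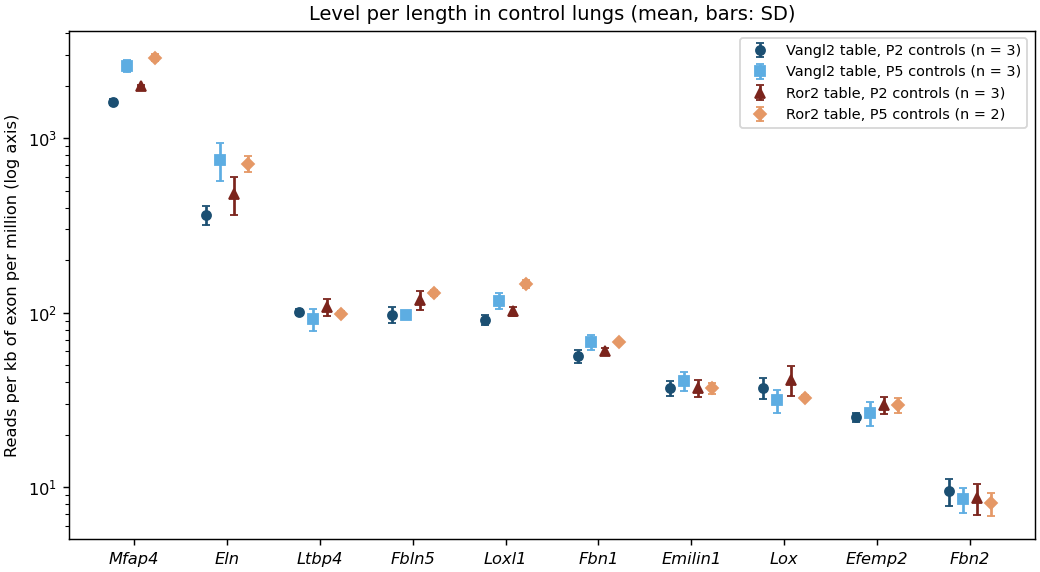
Level of each gene in the control lungs of the 4 tables, in RPKM on a log axis, with the mean as a point and the SD as a bar (3 lungs a group, 2 in the Ror2 P5 table). Mfap4 and Eln stood well above the other 8 genes, and Fbn2 was lowest in every control group.

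In counts scaled to a fixed total of reads on genes (CPM), Eln stood at 2950 ± 377 in Vangl2 P2 controls and at 6077 ± 1494 in Vangl2 P5 controls (SD, n = 3). In the Ror2 tables the control levels were 3899 ± 953 at P2 (n = 3) and 5775 ± 605 at P5 (n = 2). Eln alone held between 0.269% and 0.338% of the reads on genes in Vangl2 P2 controls and between 0.421% and 0.919% in the mutants. The 10 members together held between 0.837% and 0.966% of reads in Vangl2 P2 controls and between 0.905% and 1.29% in mutants. These ranges overlapped, as they did in Ror2 P2, with 0.981% to 1.18% in controls and 1.07% to 1.17% in mutants. At P5 every mutant was below every control, with 1.22% to 1.52% in Vangl2 P5 controls and 0.845% to 1.17% in mutants. In Ror2 P5 the 2 controls held 1.45% and 1.50% and the mutants 1.05% to 1.33%.

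**Figure D2:**
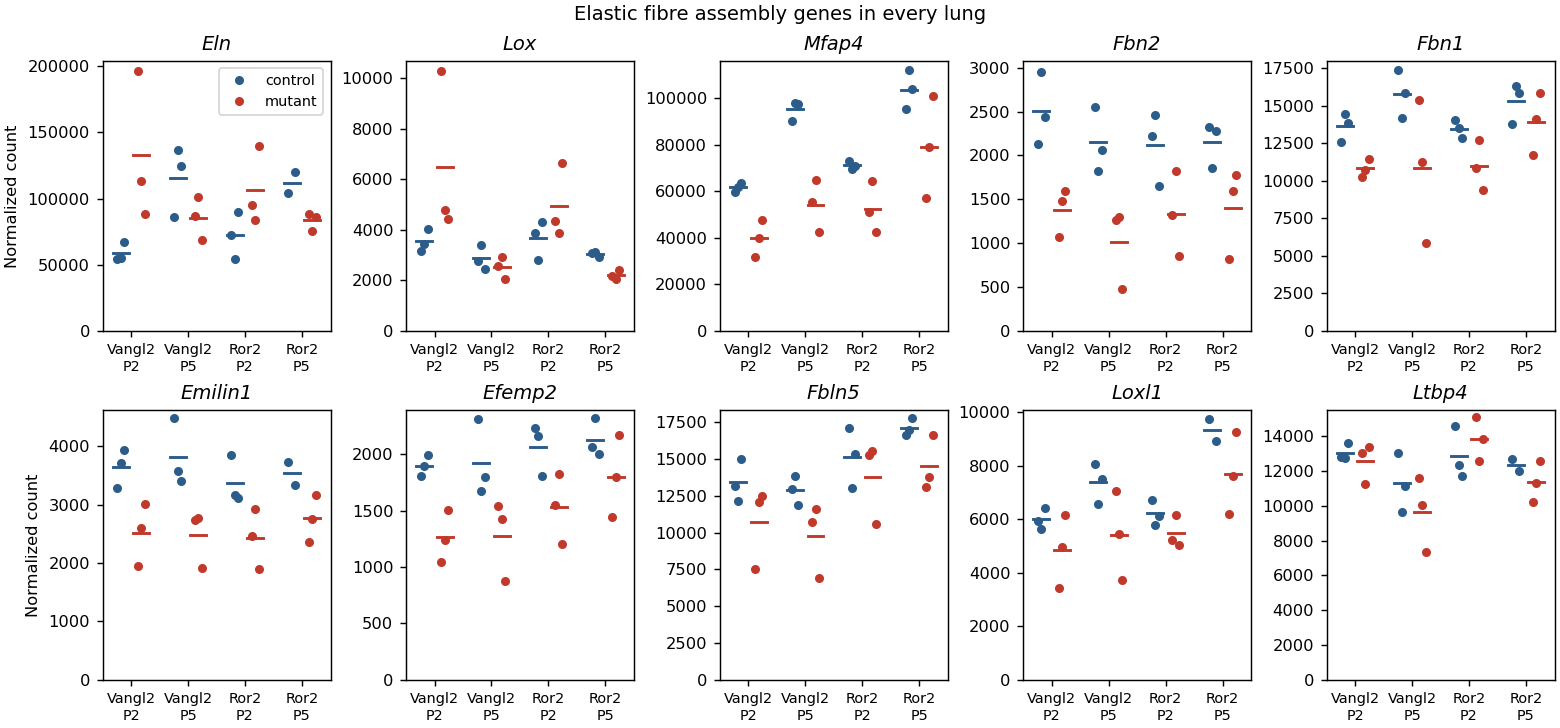
Normalized count of each gene in every lung of the 4 comparisons, with controls in blue, mutants in red and the group mean as a line. All mutants lie above all controls for Eln and Lox in Vangl2 P2 and for no other gene and comparison, and the Fbn2 mean of the mutants lies below that of the controls in every comparison.

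In Vangl2 P2, Eln lay above its control level and Fbn1, Fbn2, Mfap4 and Emilin1 below theirs. Eln was 2.14 times as high in the mutants by geometric mean, and Fbn2 fell to 0.548 times the control level. The lungs of the groups did not overlap for 2 members that were higher in mutants (Eln and Lox) and for 5 that were lower (Fbn1, Fbn2, Mfap4, Emilin1 and Efemp2). Over all 17448 genes tested, 14.6% had every mutant above every control and 14.9% had every mutant below. Only Fbn2 passed the test across all genes, limma with Benjamini-Hochberg adjustment at 0.05, which called 3.59% of genes, 1.50% higher and 2.09% lower. Of the members, 7 had an unadjusted p under 0.05, against 22.5% of all genes.

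Eln stood at 54366, 54916 and 67288 normalized counts in the control lungs and at 196873, 113003 and 88638 in the Sox9Cre; Vangl2f/f lungs. Every mutant was above every control, and the mutants spread widely, from 88638 to 196873. The log2 fold change was 1.10 (SE 0.29, adjusted p = 0.0828), and an exact two-sided permutation test gave p = 0.1, the smallest that 3 against 3 lungs allow. Without mutant replicate 1, the highest lung, the log2 fold change of Eln was 0.77. Without mutant replicate 3, the lowest of the mutants, it was 1.35 and passed the test (limma adjusted p = 0.0213). Fbn2, which encodes fibrillin-2, stood at 2125, 2951 and 2439 in controls and at 1069, 1479 and 1593 in mutants. It fell by 0.87 on the log2 scale (SE 0.18, limma adjusted p = 0.0429, lower in 3 of 3 mutants than in any control). This call was lost without any 1 of the 3 controls or without mutant replicate 2, when the limma adjusted p lay between 0.0751 and 0.194. Fbn1 controls held 12552, 14459 and 13808 and mutants 10259, 10731 and 11441, a log2 fold change of -0.33 (SE 0.10, adjusted p = 0.12).

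The other microfibril-associated genes were lower in the mutants without passing the test. Mfap4 stood at 59881, 61859 and 63690 in controls and 31720, 40004 and 47815 in mutants, with controls close together and a log2 fold change of -0.65 (SE 0.17, adjusted p = 0.0845). Emilin1 stood at 3296, 3710 and 3946 against 1943, 2602 and 3014, with -0.55 (SE 0.16, adjusted p = 0.105). Among the carriers of tropoelastin, Efemp2 was nearest to the threshold, at 1807, 1898 and 1995 in controls and 1045, 1238 and 1509 in mutants, with -0.60 (SE 0.14, adjusted p = 0.0573). Without mutant replicate 3, Mfap4, Emilin1 and Efemp2 passed the test, with limma adjusted p from 0.0116 to 0.0254. Fbln5 controls at 13165, 12120 and 14984 overlapped with mutants at 7514, 12092 and 12494, of which replicate 1 was far below the rest, and the log2 fold change was -0.36 (SE 0.20, adjusted p = 0.334). Ltbp4 differed least of all members, with 12826, 12747 and 13609 in controls, 13058, 11236 and 13375 in mutants and a log2 fold change of -0.06 (SE 0.11, adjusted p = 0.773).

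The cross-linking enzymes had log2 fold changes of opposite sign in Vangl2 P2, and neither passed the test. Lox stood at 3138, 3413 and 4042 in controls and at 10262, 4763 and 4414 in mutants, all mutants above all controls, with a log2 fold change of 0.77 (SE 0.30, adjusted p = 0.181). Replicate 1 of the mutants was far above the other mutants in Lox, and it was also the highest lung in Eln. Loxl1 stood at 5940, 5649 and 6417 in controls and at 3433, 4950 and 6159 in mutants, where the groups overlapped and mutant replicate 1 was lowest, with -0.35 (SE 0.20, adjusted p = 0.337). That lung was the lowest of the 3 mutants in 7 of the 10 members and the highest in Eln and Lox. Without it the log2 fold change was 0.38 for Lox and -0.12 for both Loxl1 and Fbln5, and the median over the members went from -0.35 to -0.21. DESeq2 on the recovered reads called 7 members in this comparison, Eln (adjusted p = 0.00061) and Lox (0.0395) higher and Fbn1, Fbn2, Emilin1, Mfap4 and Efemp2 lower, where it called 1992 genes in all against 626 by limma.

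In Vangl2 P5, all 10 members had negative log2 fold changes and Eln was no longer above its controls. The median over the members was -0.55, against 0.003 over all 17410 genes tested. Every mutant was below every control for 5 members, namely Fbn2, Mfap4, Emilin1, Efemp2 and Fbln5, where 12.5% of all genes showed this. By limma no member passed the adjusted threshold, as 0.563% of genes did (0.534% higher and 0.0287% lower), and 4 had an unadjusted p under 0.05, against 18.8% of genes. EdgeR on recovered reads also called 0 members, and DESeq2 called 3 (Fbn2, Emilin1 and Mfap4). Same-numbered lungs of control and mutant moved together here, and with that number as a block limma called 2 members, Fbn2 (adjusted p = 0.0414) and Emilin1 (adjusted p = 0.0288), where it called 1558 genes in all.

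Eln stood at 85708, 136876 and 124450 in controls and at 86794, 100856 and 68819 in mutants, so that the groups overlapped, and the log2 fold change was -0.43 (SE 0.37, adjusted p = 0.587). Fbn2 had the largest difference among the members, from 2555, 1821 and 2065 in controls to 1264, 1296 and 475 in mutants, at -1.21 (SE 0.37, adjusted p = 0.147). Mutant replicate 3 was far below the other mutants here. For Fbn1 that same lung held the low value, with 17388, 14142 and 15826 in controls and 15339, 11236 and 5848 in mutants, at -0.65 (SE 0.33, adjusted p = 0.336). It was the lowest of the 3 mutants in all 10 members. Without it the log2 fold changes were -0.73 for Fbn2, -0.26 for Fbn1 and -0.28 for Eln, and limma called 0 genes in all. Those of Efemp2, Loxl1, Fbln5, Ltbp4 and Lox were then -0.36, -0.25, -0.20, -0.06 and -0.05, so that all 10 were still negative, with a median of -0.27.

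Mfap4 had the largest difference in counts in Vangl2 P5. It stood at 90375, 98225 and 97548 in controls and 55229, 64750 and 42284 in mutants, and the log2 fold change was -0.84 (SE 0.31, adjusted p = 0.208). Emilin1 had 4492, 3572 and 3403 in controls and 2743, 2771 and 1916 in mutants, at -0.64 (SE 0.19, adjusted p = 0.141). Efemp2 and Fbln5 were lower in every mutant as well, with log2 fold changes of -0.62 (SE 0.23, adjusted p = 0.211) and -0.43 (SE 0.23, adjusted p = 0.343). The lungs of the groups overlapped for Ltbp4, Loxl1 and Lox. Within the same-numbered pairs, Lox, Loxl1 and Fbn1 were lower in the mutant in 3 of 3, and Eln and Ltbp4 in 2 of 3. The labels give replicate numbers only and name no pairs, and the share of all genes lower in 3 of 3 was not counted. Lox stood at 2776, 3407 and 2429 in controls and 2574, 2916 and 2027 in mutants, for a log2 fold change of -0.20 (SE 0.18, adjusted p = 0.614), and Loxl1 and Ltbp4 gave -0.49 (SE 0.23, adjusted p = 0.305) and -0.24 (SE 0.22, adjusted p = 0.598).

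**Figure D3:**
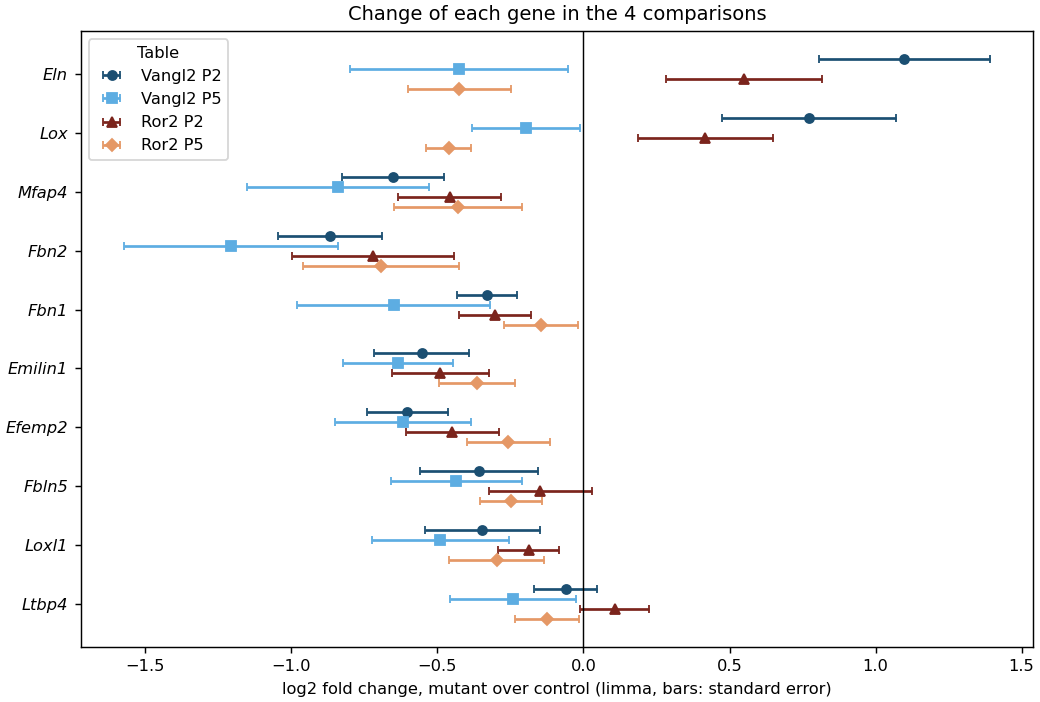
log2 fold change of mutant over control for each gene in the 4 comparisons, with the standard error from limma as a bar and the vertical line at 0. Eln and Lox lie to the right of 0 at P2 and to the left at P5 in both the Vangl2 and the Ror2 tables, while Fbn2, Mfap4, Emilin1 and Efemp2 lie to the left in all 4.

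In Ror2 P2 the members again lay on both sides of 0, and no gene in the table passed the adjusted threshold (0%). Eln, Lox and Ltbp4 had positive log2 fold changes and the other 7 negative ones, with a median of -0.25 against -0.006 over all 17541 genes. Every mutant was below every control for Fbn1, Mfap4 and Emilin1, as for 12.2% of all genes, and no member had every mutant above every control. Limma called 0% of genes. An unadjusted p under 0.05 was found for 5 members and for 19.3% of genes, and edgeR and DESeq2 called no member, although DESeq2 called 804 genes.

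Eln stood at 72663, 53859 and 90086 in Ror2 P2 controls and at 94743, 83481 and 140079 in Sox9Cre; Ror2f/f lungs. Of the mutants, 1 lay below the highest control, and the log2 fold change was 0.55 (SE 0.27, adjusted p = 0.298). Lox followed the same order of lungs, with 3869, 2813 and 4295 in controls and 4356, 3857 and 6624 in mutants, at 0.42 (SE 0.23, adjusted p = 0.347). Mutant replicate 3 was the highest lung in both genes. Without that lung the log2 fold changes were 0.33 for Eln and 0.19 for Lox. In that lung Fbn2 was lowest, with 2226, 2460 and 1654 in controls and 1314, 1816 and 848 in mutants, at -0.72 (SE 0.28, adjusted p = 0.235). Without it the values were -0.43 for Fbn2, -0.29 for Efemp2, -0.32 for Emilin1, -0.19 for Fbn1 and -0.31 for Mfap4, and the median over the members went from -0.25 to -0.16.

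Mfap4 controls were close together at 72940, 69640 and 70874, and the mutants stood lower at 51021, 64456 and 42293, with -0.46 (SE 0.18, adjusted p = 0.235). Emilin1 stood at 3856, 3165 and 3123 against 2473, 2931 and 1896, at -0.49 (SE 0.17, adjusted p = 0.213). Fbn1 had 14016, 13511 and 12838 in controls and 10840, 12732 and 9359 in mutants, at -0.30 (SE 0.12, adjusted p = 0.246). These are the 3 members whose lungs did not overlap. For Efemp2 the log2 fold change was -0.45 (SE 0.16, adjusted p = 0.219), and 1 mutant lay among the controls. Fbln5, Loxl1 and Ltbp4 differed less, with -0.15 (SE 0.18, adjusted p = 0.655), -0.19 (SE 0.10, adjusted p = 0.344) and 0.11 (SE 0.12, adjusted p = 0.627), and without mutant replicate 3 the difference of Fbln5 turned to 0.03.

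In Ror2 P5 all 10 log2 fold changes were negative, as in Vangl2 P5, with a median of -0.33 against 0.004 over all 17177 genes tested. Every mutant was below every control for Eln, Fbn2, Fbln5, Lox and Emilin1, where 14.4% of all genes showed this and 15.6% the opposite. For Eln and Emilin1 this rests on 2 controls. Limma called none of the members and 0.180% of genes (0.0873% higher and 0.0931% lower), and 5 members had an unadjusted p under 0.05, against 18.5% of genes. With control replicate 1 left out, edgeR on recovered reads called 0 members and DESeq2 called 2, Eln (adjusted p = 0.0143) and Lox (adjusted p = 0.00759).

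Lox came nearest to the threshold, and its lungs were close together within each group. It stood at 3085, 3107 and 2926 in controls and 2179, 2046 and 2409 in mutants, with a log2 fold change of -0.46 (SE 0.076, adjusted p = 0.0757). Without mutant replicate 3 the limma adjusted p of Lox was 0.0172. Eln stood at 104229 and 119743 in the 2 usable controls and at 88164, 75665 and 86387 in the mutants. The log2 fold change of Eln was -0.42 (SE 0.18, adjusted p = 0.262), and the exact two-sided permutation p was 0.2, the smallest that 3 against 2 lungs allow.

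The microfibril genes were lower in the mean of the Ror2 P5 mutants too. Fbn2 stood at 2323, 1855 and 2276 in controls and 816, 1596 and 1778 in mutants, at -0.69 (SE 0.27, adjusted p = 0.232), with mutant replicate 1 far below the others. That lung was the lowest mutant in 8 of the 10 members, Eln and Lox excepted. Without it the log2 fold change was -0.35 for Fbn2, -0.22 for Mfap4, -0.15 for Loxl1, -0.11 for Efemp2, -0.05 for Ltbp4 and -0.03 for Fbn1, and the median over the members went from -0.33 to -0.20. Mfap4 stood at 95296, 112091 and 104215 in controls and 57017, 78954 and 100972 in mutants, where 1 mutant reached the controls, at -0.43 (SE 0.22, adjusted p = 0.332). Fbn1 and Emilin1 gave -0.15 (SE 0.13, adjusted p = 0.554) and -0.36 (SE 0.13, adjusted p = 0.219). Fbln5 was lower in every mutant, at 13126, 13786 and 16621 against 16652, 17003 and 17783 in controls, with -0.25 (SE 0.11, adjusted p = 0.262). Efemp2, Loxl1 and Ltbp4 overlapped with their controls, at -0.26 (SE 0.14, adjusted p = 0.361), -0.30 (SE 0.16, adjusted p = 0.371) and -0.12 (SE 0.11, adjusted p = 0.569).

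Eln and Lox were the members whose difference between mutant and control was not the same at the 2 ages by the unadjusted test. In the Vangl2 tables the log2 fold change of Eln went from 1.10 at P2 to -0.43 at P5, a difference of -1.52 (SE 0.47, unadjusted p = 0.00651, limma interaction over 12 lungs). For Lox the difference was -0.97 (SE 0.39, unadjusted p = 0.0268). In the Ror2 tables, whose lungs are other animals, the log2 fold change of Eln went from 0.55 to -0.42, a difference of -0.98 (SE 0.35, unadjusted p = 0.0176). For Lox it was -0.88 (SE 0.27, unadjusted p = 0.0065). Neither gene passed adjustment over all genes, with adjusted p of 0.577 for both in the Vangl2 tables and of 0.46 and 0.452 in the Ror2 tables. No gene in the tables passed there, and 8.45% of genes in the Vangl2 tables and 9.50% in the Ror2 tables had an unadjusted p under 0.05. For the other 8 members, the difference between ages lay from -0.34 to 0.19, with unadjusted p of at least 0.196. The sign of this difference turned with scaling by total reads for Fbln5, Loxl1, Emilin1 and Efemp2 in the Vangl2 tables, where it lay from -0.14 to -0.02.

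Mutants of Vangl2 and mutants of Ror2 were not told apart by any member. At P2 the Vangl2 effect minus the Ror2 effect was 0.55 for Eln (SE 0.42), 0.36 for Lox (SE 0.43), -0.15 for Fbn2 (SE 0.36) and -0.20 for Mfap4 (SE 0.25). At P5 it was -0.001 for Eln (SE 0.43, 0.05 with scaling by total reads), 0.26 for Lox (SE 0.21), -0.51 for Fbn2 (SE 0.51) and -0.41 for Mfap4 (SE 0.38). The adjusted p was at least 0.969 for every member at both ages, where 0% of genes at P2 and 0.0118% at P5 passed, and no member had an unadjusted p under 0.05, as 4.60% of genes did at P2 and 4.73% at P5.

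Ratios of 2 members within a lung do not depend on how the lungs were scaled. Eln and Mfap4, the most abundant pair, were close to equal in counts in Vangl2 P2 controls, with Eln to Mfap4 ratios of 0.908, 0.888 and 1.06. In the mutants the ratios were 6.21, 2.82 and 1.85, all above the controls, and the ratio of the geometric means was 3.37. In Ror2 P2 the controls had ratios of 0.996, 0.773 and 1.27 and the mutants 1.86, 1.30 and 3.31, again all above the controls. In Vangl2 P5 the mutants lay close together at 1.57, 1.56 and 1.63, above the controls at 0.948, 1.39 and 1.28. In Ror2 P5 the 2 controls at 0.930 and 1.15 lay among the mutants at 1.55, 0.958 and 0.856. With Fbn1 in place of Mfap4, the groups were apart in Vangl2 P2 only. The Eln to Fbn1 ratios there were 3.80 to 4.87 in controls and 7.75 to 19.2 in mutants. In Ror2 P2, mutant replicate 2 at 6.56 lay below control replicate 3 at 7.02. In Vangl2 P5 the controls at 4.93 to 9.68 overlapped with the mutants at 5.66 to 11.8. The groups also overlapped in Ror2 P5.

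**Figure D4:**
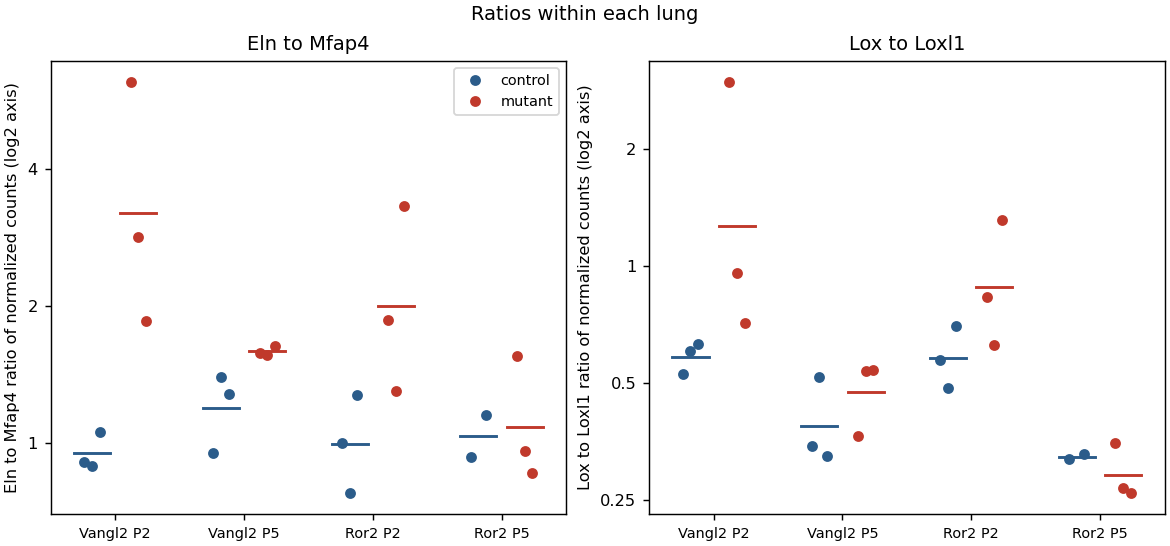
Ratio of normalized counts of Eln to Mfap4 (left) and of Lox to Loxl1 (right) in every lung, on a log2 axis, with controls in blue, mutants in red and the geometric mean as a line. Both ratios are highest in the P2 mutants, led by Vangl2 P2 mutant replicate 1 with 6.21 and 2.99.

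The 2 cross-linking enzymes shifted against each other in the same lungs. The Lox to Loxl1 ratio was 0.528, 0.604 and 0.630 in Vangl2 P2 controls and 2.99, 0.962 and 0.717 in mutants. In Ror2 P2 it was 0.575, 0.485 and 0.700 in controls and 0.834, 0.627 and 1.32 in mutants, where 1 mutant lay below the highest control. At P5 it lay between 0.318 and 0.520 in the 5 controls and between 0.260 and 0.542 in the 6 mutants. These pairs of genes were chosen after their values were seen, and the ratios are given without a test.

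Across lungs, Lox was the gene of the whole table with the highest Pearson r with Eln. On log2 CPM, centred on each table's mean over 23 lungs, the Pearson r of Lox with Eln was 0.92 (Spearman's rho 0.86), first of 12146 genes with a mean of at least 5 CPM. Without the 2 lungs farthest from the Eln median, Vangl2 P2 mutant replicate 1 and Ror2 P2 mutant replicate 3, r was 0.84. Mbd5, second by r, stood above Lox by rank (rho 0.90) and without those lungs (r = 0.87). With each lung centred on its own group, which takes out the mean difference between mutant and control, the r of Lox with Eln was 0.88. The next 9 genes by r were Mbd5, Pld1, Il1rap, Gab2, Ttll7, Tacc1, Atf6, Cmklr1 and Adam9, with r from 0.90 to 0.84. The other 8 members all had negative r with Eln, from -0.13 for Ltbp4 to -0.57 for Efemp2, and ranked from 5971 to 10299 of the 12146 genes. Without those 2 lungs their r lay between -0.31 and 0.23.

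**Figure D5:**
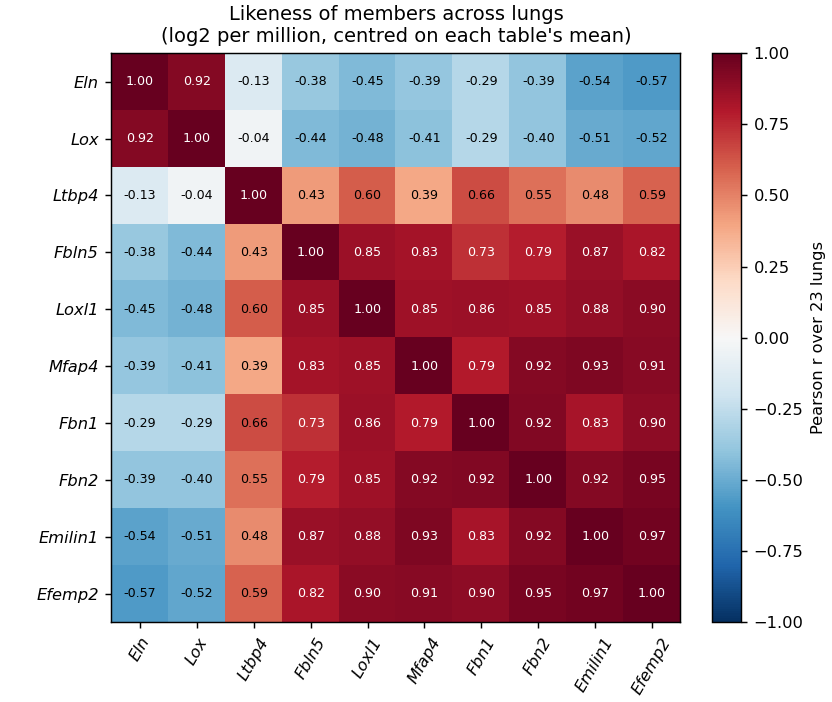
Pearson r between each pair of members over 23 lungs, on log2 CPM centred on each table's mean, with red for positive and blue for negative values. Eln and Lox form a pair with r = 0.92, the 7 genes from Fbln5 to Efemp2 form a block with r of at least 0.73, and Ltbp4 has r from 0.39 to 0.66 with that block and below 0 with Eln and Lox.

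Fbn1, Fbn2, Mfap4, Emilin1, Efemp2, Fbln5 and Loxl1 followed each other instead. Their 21 pairs had r between 0.73 and 0.97, highest for Emilin1 with Efemp2, and between 0.59 and 0.93 with each lung centred on its own group. Fbn2 with Efemp2 (r = 0.95) and Emilin1 with Mfap4 (r = 0.93) were next. The promoter windows of Emilin1 and Efemp2 printed above share the CAGAC letters, which 42.2% of all windows hold, and no other motif searched. The windows of the listed Efemp2 start sites 2 and 3 hold 0 copies of CAGAC and 5 of GGGCGG each. The part of any motif in these levels was not tested. All these r are descriptions over the same 23 lungs, whose members share a library in each lung.

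The wider set of 31 elastic fibre and microfibril genes, which holds further fibulins, latent TGF-beta binding proteins, emilins, lysyl oxidase-like enzymes, ADAMTS proteins and integrins, had few genes past the adjusted threshold. In Vangl2 P2, 12 of the 31 (38.7%) had an unadjusted p under 0.05, against 22.5% of all genes. The adjusted test called 1 gene of the 31, where it called 3.59% of all genes. This was Adamts17, a secreted ADAMTS protease, which stood at 3028, 3227 and 3018 in controls and 2214, 2015 and 2047 in mutants and fell by 0.56 on the log2 scale (limma adjusted p = 0.03). The largest log2 fold change of the set was that of Adamtsl2, a fibrillin-binding ADAMTS-like protein, at 1.58 (SE 0.52, adjusted p = 0.132). Its controls were at 515, 354 and 646 and its mutants at 2922, 1758 and 609, so that mutant replicate 3 lay among the controls. The set did not move as one, with 11 positive and 20 negative log2 fold changes and a median of -0.07. Mfap2, a small microfibril glycoprotein named after its values were seen, overlapped between the groups at 5109, 4897 and 5716 in controls and 5772, 4740 and 5760 in mutants.

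In the other comparisons 0 of the 31 passed by limma, and 11 (35.5%), 11 (35.5%) and 12 (38.7%) had an unadjusted p under 0.05 in Vangl2 P5, Ror2 P2 and Ror2 P5, against 18.8%, 19.3% and 18.5% of all genes. Every mutant was below every control for 11 of the 31 in Vangl2 P5 and for 11 in Ror2 P5, where 12.5% and 14.4% of all genes showed this. In Vangl2 P5, 26 of the 31 had negative log2 fold changes, with a median of -0.27, and Adamts17 differed most, at -0.93 (SE 0.19, adjusted p = 0.0783), every mutant lower than every control. Vcan, the large proteoglycan versican that binds microfibrils, differed most in both Ror2 comparisons. It stood at 6016, 7601 and 4760 in Ror2 P2 controls and 2593, 4052 and 912 in mutants, at -1.50 (SE 0.50, adjusted p = 0.211), and gave -0.66 (SE 0.22, adjusted p = 0.19) in Ror2 P5. The medians over the set there were -0.07 and -0.08.

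Of 12 proteases that degrade elastin, 10 had positive log2 fold changes in Vangl2 P2 and 10 in Vangl2 P5, with medians of 0.54 and 0.97, where 50.1% and 50.3% of all genes were positive. Several of them are products of macrophages and neutrophils. The macrophage markers lay higher in the same comparisons. Every mutant was above every control for 3 of 4 in Vangl2 P2 (median 0.48) and for 4 of 4 in Vangl2 P5 (median 0.74). Of all genes, 14.6% and 13.2% showed this. The part of macrophages and neutrophils in the protease values was not tested. In Vangl2 P2, 1 of the 12 proteases passed the test, where 3.59% of all genes did. This was the lysosomal cysteine protease cathepsin L (Ctsl), which rose from 2600, 2796 and 3050 to 5022, 4141 and 3752, a log2 fold change of 0.60 (SE 0.13, adjusted p = 0.0457). In Vangl2 P5, 1 passed, where 0.563% of all genes did. This was cathepsin S (Ctss), an elastin-degrading protease of macrophages, which rose from 1050, 956 and 829 to 2540, 2302 and 2929, at 1.45 (SE 0.15, adjusted p = 0.0141). The largest differences of the list were in genes with few reads. Elane, neutrophil elastase, held at most 11.4 normalized counts in any Vangl2 P2 lung, and Cela1, a pancreatic-type elastase, held 4.56, 2.35 and 5.04 in Vangl2 P5 controls and 17.4, 8.95 and 24.1 in mutants, at 1.78 (SE 0.51, adjusted p = 0.133). In Ror2 P2 and Ror2 P5 none passed by limma, with medians of 0.10 and 0.02 and the largest values in Cela1 (1.01) and Prtn3 (0.57). An unadjusted limma p under 0.05 was found for 7 of 12 proteases in Vangl2 P2 and for 8 in Vangl2 P5. Of all genes, 22.5% and 18.8% had one. In Ror2 P2 it was found for 1 of 12 and in Ror2 P5 for 3 of 11, against 19.3% and 18.5% of all genes.

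Of 9 protease inhibitors tested, 4 had an unadjusted limma p under 0.05 in each Vangl2 comparison, 0 in Ror2 P2 and 1 in Ror2 P5. The shares over all genes were 22.5% in Vangl2 P2, 18.8% in Vangl2 P5, 19.3% in Ror2 P2 and 18.5% in Ror2 P5. By adjusted limma p, 1 of the 9 passed in each Vangl2 comparison and 0 in Ror2 P2 and Ror2 P5. Of all genes, 3.59% passed in Vangl2 P2 and 0.563% in Vangl2 P5. Serpina3n, a secreted serine protease inhibitor of the acute phase response, rose in Vangl2 P2 from 28.4, 49.3 and 33.5 to 5004, 348 and 556, a log2 fold change of 4.74 (SE 0.87, adjusted p = 0.0337). Mutant replicate 1, the lung with the highest Eln and Lox, held the highest value. Slpi, an inhibitor of neutrophil elastase, rose in Vangl2 P5 from 123, 116 and 93.7 to 346, 347 and 442, at 1.76 (SE 0.20, adjusted p = 0.0148). Serpina3n had the largest log2 fold change of the list in Vangl2 P5 (2.70), Ror2 P2 (0.83) and Ror2 P5 (0.72), none of which passed. Its reads may be shared with near-identical paralogs of the same cluster.

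Markers of other cells differed between mutants and controls as well, and not always in the same direction across comparisons. In Vangl2 P2, all 5 proliferation genes fell by the test, with a median log2 fold change of -1.72, and their summed normalized count was 10703 to 17835 in controls and 2941 to 6113 in mutants. The test called 1.50% of all genes higher and 2.09% lower in Vangl2 P2. Of 5 neutrophil markers tested 4 rose, with a median of 1.30 and summed levels of 2494 to 4056 in controls against 7282 to 10733 in mutants. The 13 markers of alveolar myofibroblasts and smooth muscle summed to 54589 to 67373 in controls and 44379 to 53636 in mutants, with 1 (Myh11) lower by the test. The matrix fibroblast markers summed to 183328 to 197992 in controls and 139879 to 163974 in mutants, with 1 of 10 (Col1a1) lower by the test. The list was split, with 5 positive and 5 negative log2 fold changes and a median of -0.04. In Vangl2 P5 the summed matrix fibroblast level was 214748 to 241956 in controls and 109610 to 178844 in mutants, and that of the 6 pericyte markers was 44269 to 44842 against 20941 to 35671, with no marker of either list called. The matrix fibroblast list held 4 positive and 6 negative log2 fold changes there, and all 6 pericyte markers were negative. Of 5 neutrophil markers 2 rose there (S100a8 and S100a9), where the test called 0.534% of all genes higher. The 13 myofibroblast and smooth muscle markers had a median of -0.59 in Vangl2 P5, with 12 negative and 0 called. Every mutant was below every control for 8 of the 13, as for 12.5% of all genes.

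In the Ror2 comparisons the mesenchymal sums of the mutants lay lower or overlapped with the controls. In Ror2 P2 the matrix fibroblast markers summed to 169841 to 185030 in controls and 122697 to 171302 in mutants, and the proliferation genes to 7979 to 16604 against 1142 to 8678, with no call in either list. The 5 neutrophil and 4 macrophage markers tested were all negative there, with medians of -0.39 and -0.27 and none called. Their medians in Ror2 P5 were 0.57 and 0.07, again with none called. In Ror2 P5 the matrix fibroblast sums were 215788 to 230524 in 2 controls and 160431 to 196066 in mutants. Of that list, 3 markers were positive and 7 negative, as in Ror2 P2. Stc1 was the 1 of 13 myofibroblast and smooth muscle markers called in Ror2 P5, lower in mutants, as 0.0931% of all genes were. Pdgfra, a marker of the septal myofibroblast lineage, had log2 fold changes of 0.13 and 0.27 at P2 and of -0.88 and -0.58 at P5 in the Vangl2 and Ror2 comparisons, none past the threshold. Of the 13 markers in its list, 10 were negative in each P2 comparison and 12 in each P5 comparison. Chondrocyte markers, which would mark cartilage in the sample, had few reads. Their sums were 94.8 to 159.9 normalized counts in controls and 47.9 to 128.8 in mutants in Vangl2 P2, and 87.6 to 232.7 against 138.8 to 211.8 in Vangl2 P5, where all 4 tested had positive log2 fold changes. In Ror2 P5 they were 84.3 to 99.4 in 2 controls and 209.3 to 223.5 in mutants, and none was called in any comparison. Epithelial and blood markers moved too. The 3 club cell markers were higher in every mutant than in any control in Vangl2 P2, Vangl2 P5 and Ror2 P5. Of all genes, 14.6%, 13.2% and 15.6% showed this in that order. The medians of the 3 markers were 0.68, 1.21 and 1.29, and none was called. In Vangl2 P5 these markers summed to 55288 to 106082 in controls and 176627 to 224245 in mutants. Of 6 alveolar type II markers, 5 were higher in every Vangl2 P2 mutant and 2 passed the test. In that comparison the test called 1.50% of all genes higher and 2.09% lower. The 3 erythroid markers tested had medians of -1.51 in Vangl2 P2, with 1 lower by the test, and of -1.90 in Ror2 P2, with none called. The part of cell numbers in the values of the 10 genes was not tested.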

How the data were processed

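RNA-Seq of left lung lobes was analysed from 4 tables of 23420 genes with 24 lungs in 8 groups of 3. The values are normalized counts (a signal per gene, not whole reads) deposited by the authors, made with DESeq2 on the mm10 assembly per the labels. Aligner, counter and annotation are not given in the sources used here. The tables also hold the authors' base means, fold changes, standard errors, test statistics and p-values, which were not used. Values in each lung were whole multiples of 1 step, within 0.02 of a whole number for 100% of values, and dividing by it recovered reads for the total, edgeR and DESeq2.

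The main test was limma 3.58.1 (R 4.3.3) on log2(normalized count + 1), for genes with at least 1 in at least 3 lungs of a table, with p-values adjusted by the Benjamini-Hochberg method across every gene fitted and a threshold of 0.05. Fold changes are on that scale. A count test had been planned for raw counts and was kept as an alternative (edgeR 4.0.16, DESeq2 1.42.0). Exact permutation tests were two-sided. Differences of effects were limma interactions with each table's own controls. In the Ror2 P5 table, control replicate 1 was set missing for genes on chromosomes 5 to 9 and X and for 154 genes without a known chromosome, and it was left out of levels, ratios and correlations. Chromosomes and exon lengths came from RefSeq and GENCODE vM21. The fit was tested on simulated data. Other settings were pseudocount 10, no filter, total-read scaling, each lung left out, a replicate block and all lungs of an age together. Settings added after seeing the data were edgeR and DESeq2 without control replicate 1 in Ror2 P5, and the within-lung ratios.

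The 10 members and all lists were chosen with earlier results of these data known. Named genes were all members, genes of the other lists past 0.05 or with the largest change of their list, the 10 genes most like Eln over 23 lungs, Vangl2 and Ror2. Pdgfra and Mfap2 were named after their values were seen. The labels number the replicates without naming litters, so p-values measure the spread between these lungs. Lists of elastic fibre, protease, inhibitor and cell type genes held 31, 12, 10 and 3 to 13 genes, and the lists with no values in the text (mesothelium, endothelium, alveolar type I, heart muscle and lymphocyte markers) had between 0 and 1 genes called in any comparison.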

Additional observations from a re-analysis of the deposited data

How the results depend on the processing

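Of 530 repeats of a member's log2 fold change under another setting, 499 kept their sign and their side of the 0.05 threshold, 21 passed it newly, 5 no longer passed it and 5 changed sign. Of the members called in Vangl2 P2 (1), 3 were called with a replicate block, 2 with scaling by total reads, 7 by DESeq2 and 0 with all 12 lungs of the age in one fit, and leaving out a lung gave 0 to 5, with Eln, Mfap4, Emilin1 and Efemp2 beside Fbn2 when mutant replicate 3 was left out. In Vangl2 P5 (0), 2 were called with the replicate block and 3 by DESeq2. In Ror2 P5 (0), 2 were called by DESeq2, and leaving out a lung gave 0 to 1. Over all genes, leaving out a lung gave 1 to 2333 calls in Vangl2 P2 (626), 0 to 54 in Vangl2 P5 (98), 0 to 859 in Ror2 P2 (0) and 0 to 893 in Ror2 P5 (31). Without mutant replicate 3, Vangl2 P2 had 2333 calls and Ror2 P5 had 893, and without mutant replicate 2 Ror2 P2 had 859. DESeq2 on recovered reads called 1992, 1272, 804 and 646 genes in that order. With all lungs of an age in one fit, Vangl2 P2 had 50 calls, Vangl2 P5 had 1023 and Ror2 P5 had 3. The replicate block gave 795, 1558, 1 and 1 calls, and the cause of these shifts was not tested. Scaling by total reads gave 193 calls in Vangl2 P5 and 4 in place of 2 for the difference of Vangl2 and Ror2 effects at P5. In Ror2 P5, edgeR without control replicate 1 called 2 genes, and the table as deposited gave 1.

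The sign turned for Ltbp4 in Vangl2 P2 without mutant replicate 2, where leaving out a lung gave -0.108 to 0.0176, and for Fbln5 in Ror2 P2 without mutant replicate 3, where it gave -0.253 to 0.033. With control replicate 1 kept as deposited, where it holds no reads of these genes, Ror2 P5 gave log2 values of 5.16 for Eln, 4.10 for Loxl1 and 4.41 for Ltbp4. With scaling by total reads, the Vangl2 minus Ror2 difference of Eln at P5 was 0.0488, and the P5 minus P2 difference in the Vangl2 tables was 0.0862 for Fbln5, 0.0197 for Loxl1, 0.0815 for Emilin1 and 0.15 for Efemp2. Lungs of the same replicate number moved together most in Vangl2 P5, where the correlations of their deviations were 0.38, 0.34 and 0.24. The other tables gave -0.01, 0.04 and 0.09 (Vangl2 P2), 0.03, 0.21 and 0.12 (Ror2 P2) and 0.05, -0.05 and -0.09 (Ror2 P5). Whether lungs of the same number share a litter or batch was not tested. Besides Fbn2 and Emilin1 in Vangl2 P5, the block changed the call of Emilin1 (adjusted p = 0.0478) and Efemp2 (adjusted p = 0.0429) in Vangl2 P2 and of no other member. Groups held 3 lungs, and 2 controls for Eln, Loxl1, Ltbp4 and Emilin1 in Ror2 P5. The lowest value of a member was 475 normalized counts (Fbn2 in Vangl2 P5), and counting error was not compared with the spread between lungs.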
